A study of Mus musculus with 33 samples.

Results

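Several genes act in the exit of newly made T cells from the thymus into the blood. Described here across the cortex and medulla of the mouse thymus are 6 of them: Foxo1, Klf2, S1pr1, Cd69, Sphk1 and Sgpl1. They were chosen by name, as genes known for thymic exit, and every probe set that carries one of these symbols was used. This gave 11 probe sets of the 45037 on the array, and 6 genes of the 18193 that were named by at least 1 probe set with a single symbol. A probe set is a group of short probes that reads 1 transcript region. Of the 11 probe sets, 9 passed the filter on low values (signal above the median of its own array on at least 3 arrays) and entered the tests, and each of the 6 genes had at least 1 among them.

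Thymocytes are made in the cortex, and those that pass selection move into the medulla, where they mature before they leave through blood vessels at the border of cortex and medulla. Exit follows a gradient of the lipid sphingosine 1-phosphate (S1P), which is high in blood and kept low inside the tissue. In mature thymocytes the transcription factor FOXO1 drives Klf2, and the transcription factor KLF2 drives S1pr1, which encodes the S1P receptor that senses the gradient. CD69, an early activation antigen, binds this receptor at the cell surface and takes it inside the cell, so it holds cells back. Sphingosine kinase 1, the product of Sphk1, makes S1P, and S1P lyase, the product of Sgpl1, breaks it down.

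The study used C57BL/6J mice, given as males aged 4 to 6 weeks, and put thymus RNA on 33 Affymetrix arrays. No genetic change or treatment is given for any group. Sorted medullary thymocytes (n = 5 arrays) were gated as CD3hi and CD45+, and sorted cortical thymocytes (n = 5) as CD45+ cells that were CD3-/lo and carried CD90 or CD117. Microdissected tissue gave whole medulla (n = 7), whole cortex (n = 7), and 3 zones of the cortex, subcapsular, central and perimedullary (n = 3 each). The perimedullary zone is the part of the cortex that borders the medulla. Both gates use surface proteins to separate cells by maturity, so the sorted groups stand for maturity stages as much as for places. Arrays are titled as biological replicates, yet no label ties a dissected region to an animal, so some arrays may share animals and the p-values may then be too small.

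Values are deposited array signal (intensity), linear and not on a log scale. Array medians ran from 71.9 to 163, and arrays within a group correlated with Pearson's r of 0.914 to 0.985. A wide upper tail (0.1% of probe sets above a value of over 42000) set 13 arrays apart: in whole cortex and in whole medulla replicates 1 to 5, and in medullary thymocytes replicates 1 to 3. This limit was set after the data were seen. The value exceeded by 0.1% of probe sets was 16919 to 19984 on zone arrays and 33358 to 75998 on whole-tissue arrays. Some genes also read far apart: Cd8b1 averaged 1980 to 2490 in the zones and 30000 in whole cortex, and Pik3cd 26300 to 32900 and 1610. Where zones are set beside other groups, a difference between sets of arrays and one of place cannot be told apart. Markers of mature thymocytes and of medullary epithelium matched the labels. All 11 tested mature markers were higher in medullary than in cortical thymocytes, where 7.67% of all tested genes were higher and 6.28% lower. All 5 epithelial markers were higher in whole medulla than in whole cortex, against 18.7% of genes. Of 11 semi-mature thymocyte markers, 5 were higher in medullary thymocytes and 1 lower. All 3 tested markers of natural killer and innate-like lymphocytes were higher there too. The signal of that list summed to 1258 to 2394 in medullary and 137 to 229 in cortical thymocytes. The part of these cells in the exit gene values was not tested. Tissue RNA and sorted-cell RNA came from different isolation kits, so a kit effect and a tissue effect cannot be told apart. In these bulk samples fewer cells of a type and less RNA per cell cannot be told apart either.

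A probe set was called changed when its limma p-value, adjusted by Benjamini-Hochberg over 30045 probe sets, was below 0.05 and its log2 fold change was at least 1 in size. Sorted medullary thymocytes were higher than sorted cortical thymocytes for 6 of the 9 tested probe sets, where 7.04% of all tested probe sets were higher. Whole medulla was higher than whole cortex for 6 of the 9, against 15.7% of all tested, and all 6 were shared by both comparisons. They are the single probe sets of Klf2, S1pr1 and Cd69 and 3 probe sets of Foxo1. Over all genes the median log2 fold change between whole medulla and whole cortex was 0.11, and -0.02 after quantile normalization, so values this small carry no direction. The 8 comparisons given here share arrays and are not independent of each other. None of the 9 was called lower in medullary thymocytes, against 5.91% of all tested, or in whole medulla, against 4.84%, and the tested probe sets of Sphk1 and Sgpl1 were called in neither comparison.

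**Figure D1:**
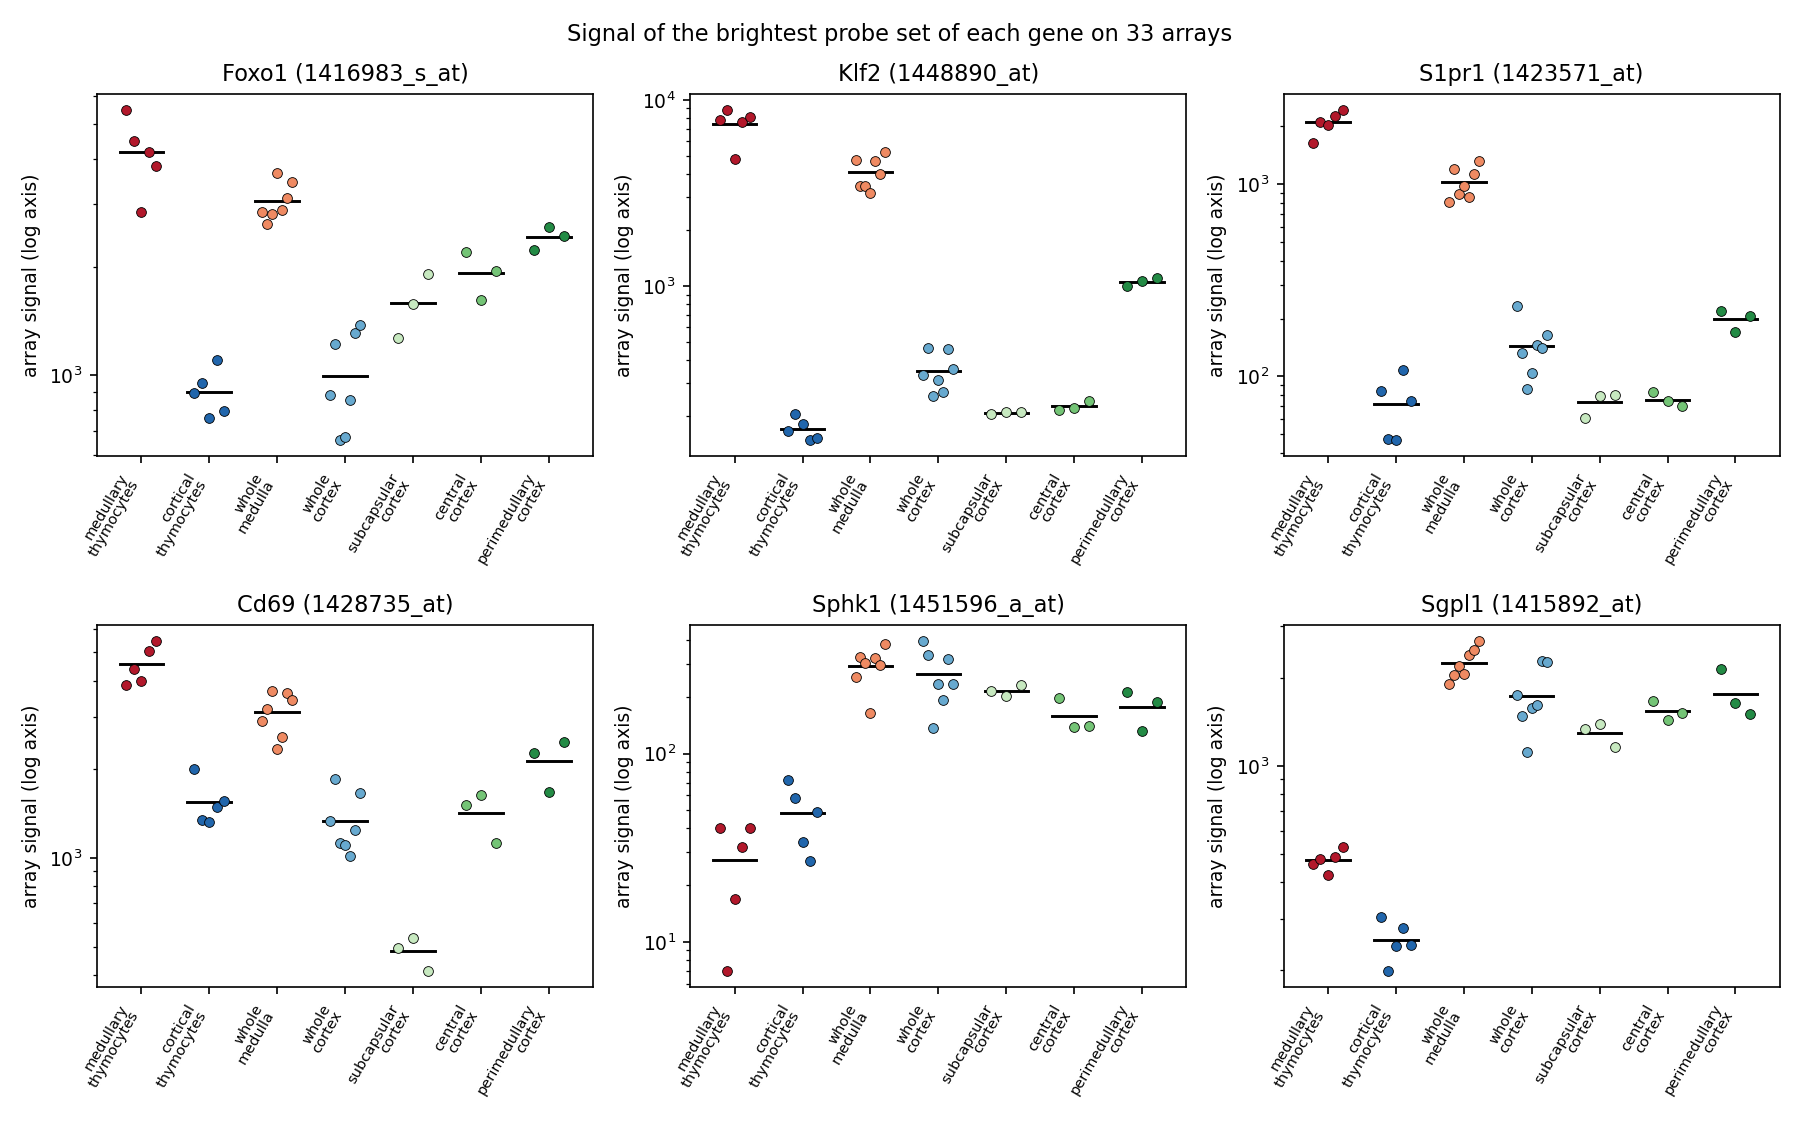
Array signal (log axis, each panel with its own range) of the brightest probe set of each of the 6 genes on all 33 arrays, 1 point per array, with a bar at the group mean. Klf2, S1pr1, Cd69 and Foxo1 are high in medullary thymocytes and whole medulla, while Sphk1 and Sgpl1 are higher in all 5 tissue groups than in both sorted groups.

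Foxo1 encodes the transcription factor at the head of the programme. Its brightest probe set, 1416983_s_at, read 5472, 4496, 2857, 4193 and 3833 in medullary thymocytes, against 895, 953, 762, 1102 and 799 in cortical thymocytes. Every medullary array lay above every cortical one. The log2 fold change was 2.16 (SE 0.17, adjusted p = 1.6e-12), which is 4.46-fold on the scale of the fit.

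In tissue this Foxo1 probe set averaged 3060 ± 371 in whole medulla and 999 ± 302 in whole cortex (SD, n = 7 each). The lowest, median and highest arrays read 2634, 2886 and 3656 in whole medulla, against 662, 880 and 1380 in whole cortex, with no overlap. On the log2 scale the difference was 1.64 (SE 0.15, adjusted p = 1.3e-11). The other Foxo1 probe sets that passed went the same way in both comparisons. Probe set 1416981_at changed by 2.1 between medullary and cortical thymocytes and by 1.89 between whole medulla and whole cortex, and 1416982_at by 2.06 and 1.52 on the log2 scale. The remaining Foxo1 probe set, 1456529_at, did not pass the filter and read between 5 and 106 on all 33 arrays.

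Klf2 encodes the transcription factor between FOXO1 and S1pr1, and it had the largest change of the 6 genes between medullary and cortical thymocytes. It read 7784, 8815, 4833, 7596 and 8064 in medullary thymocytes, against 166, 205, 181, 149 and 152 in cortical thymocytes. Replicate 3 of the medullary thymocytes was the lowest of its group and still far above all cortical arrays. The log2 fold change was 5.22 (SE 0.16, adjusted p = 3e-24), or 37.3-fold on the scale of the fit.

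In tissue Klf2 averaged 4110 ± 804 in whole medulla and 350 ± 83.2 in whole cortex (SD, n = 7 each). The lowest, median and highest arrays read 3159, 4010 and 5240 in whole medulla, against 258, 333 and 464 in whole cortex, so these groups were also apart. On the log2 scale the difference was 3.46 (SE 0.13, adjusted p = 2e-21). Over all 7 groups the order of Klf2 was medullary thymocytes, whole medulla, perimedullary cortex, whole cortex, central cortex, subcapsular cortex and cortical thymocytes. Arrays of neighbouring groups in this order overlapped only between medullary thymocytes and whole medulla.

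RefSeq promoter windows (GRCm38.p6) were on hand for 4 of the 6 genes, and S1pr1 and Cd69 were not among them. The 250 bases before the start of Klf2 and of Foxo1, which differed together between the compartments, and of Sgpl1, which was called in neither compartment comparison, are printed to show which binding motifs they hold. Capitals mark matches on either strand to GGGCGG (the GC box bound by SP and KLF factors) or to CCACCC (the CACCC box of KLF factors); on the opposite strand these read CCGCCC and GGGTGG. The windows were also searched for GTAAACA, the core bound by forkhead factors such as FOXO1.
Klf2, chr8:72318812-72319061, plus strand: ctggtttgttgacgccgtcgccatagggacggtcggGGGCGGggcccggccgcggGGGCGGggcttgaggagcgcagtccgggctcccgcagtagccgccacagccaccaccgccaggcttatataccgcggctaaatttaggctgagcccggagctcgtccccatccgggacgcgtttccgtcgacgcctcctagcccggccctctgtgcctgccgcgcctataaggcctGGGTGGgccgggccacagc
Foxo1, chr3:52268087-52268336, plus strand: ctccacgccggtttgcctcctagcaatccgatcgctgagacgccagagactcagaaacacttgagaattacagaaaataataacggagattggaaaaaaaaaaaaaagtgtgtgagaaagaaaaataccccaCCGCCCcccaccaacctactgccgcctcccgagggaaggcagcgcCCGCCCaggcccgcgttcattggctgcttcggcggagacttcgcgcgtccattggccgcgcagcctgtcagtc
Sgpl1, chr10:61147685-61147934, minus strand: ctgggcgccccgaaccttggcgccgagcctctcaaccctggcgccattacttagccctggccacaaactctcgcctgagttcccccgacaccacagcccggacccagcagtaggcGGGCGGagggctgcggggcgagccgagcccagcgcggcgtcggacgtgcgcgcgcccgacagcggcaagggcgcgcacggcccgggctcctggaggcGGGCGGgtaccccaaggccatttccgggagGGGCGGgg
The Klf2 window held GC boxes starting 214 and 195 bases before the start, and a CACCC box 19 bases before it on the opposite strand. The Foxo1 window held GC boxes 118 and 73 bases before the start, both on the opposite strand, and the Sgpl1 window held 3, at 135, 38 and 8 bases. None of the printed windows held the forkhead letters. Of all 32851 windows of this length, 32.7% held the GC box, 28.1% the CACCC box and 3.17% the forkhead letters, so these matches describe the windows and mark no binding site. For Sphk1 the table gives 5 windows, none with a GC box or the forkhead letters and 4 with at least 1 CACCC box.

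S1pr1, the receptor that senses S1P, was read by 1 probe set. In medullary thymocytes it read 1642, 2103, 2015, 2264 and 2423, against 83.7, 47.1, 46.8, 108 and 74.5 in cortical thymocytes. All medullary arrays lay far above the cortical ones, and only 2 of the 5 cortical arrays were above the median signal of their array. The log2 fold change was 4.46 (SE 0.19, adjusted p = 4.8e-20), or 22-fold on the scale of the fit, which understates ratios where a signal is low.

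In tissue S1pr1 averaged 1020 ± 191 in whole medulla and 144 ± 46.9 in whole cortex (SD, n = 7 each). The lowest, median and highest arrays read 802, 979 and 1315 in whole medulla, against 86.4, 141 and 232 in whole cortex, with no overlap. On the log2 scale the difference was 2.65 (SE 0.16, adjusted p = 4.1e-16). In the order over the 7 groups, S1pr1 was highest in medullary thymocytes, then whole medulla, perimedullary cortex and whole cortex. The last of these overlapped with perimedullary cortex, and central cortex, subcapsular cortex and cortical thymocytes at the low end overlapped with each other.

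Cd69, the antagonist of the receptor at the cell surface, was higher in both medullary groups, as S1pr1 was. It read 3880, 4388, 3997, 5048 and 5457 in medullary thymocytes, against 2011, 1349, 1320, 1484 and 1558 in cortical thymocytes. The groups did not overlap, and the cortical thymocytes carried clear signal on all 5 arrays. The log2 fold change was 1.55 (SE 0.16, adjusted p = 4.8e-10).

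In tissue Cd69 averaged 3120 ± 527 in whole medulla and 1330 ± 310 in whole cortex (SD, n = 7 each). The lowest, median and highest arrays read 2352, 3217 and 3699 in whole medulla, against 1016, 1244 and 1848 in whole cortex, again apart. On the log2 scale the difference was 1.22 (SE 0.13, adjusted p = 1.2e-09). Over the 7 groups Cd69 was lowest in subcapsular cortex, at 482 ± 62.5 (SD, n = 3).

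The called compartment differences were also taken within the 10 whole-tissue arrays that had a wide upper tail and within the 4 that did not. Whole medulla exceeded whole cortex by 3.48 with and 3.42 without the tail for Klf2, by 2.59 and 2.79 for S1pr1, by 1.2 and 1.29 for Cd69, and by 1.78 and 1.27 for the brightest Foxo1 probe set, all on the log2 scale. Both sets of arrays called 6 of the 9 probe sets. No cortical thymocyte array had the tail, so medullary and cortical thymocytes were compared without it only. Of the medullary thymocytes this left replicates 4 and 5 alone. The comparison gave 5.33 for Klf2, 4.63 for S1pr1, 1.76 for Cd69 and 2.13 for the brightest Foxo1 probe set.

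Sphk1, the kinase that makes S1P, had low signal in sorted cells. Its tested probe set, 1451596_a_at, read 40, 7, 16.8, 32 and 40.1 in medullary thymocytes, against 72.6, 58.3, 33.8, 26.7 and 48.8 in cortical thymocytes. These groups overlapped, and all 10 sorted arrays were below the median of their array. The log2 fold change was -0.49 (SE 0.24, adjusted p = 0.12).

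In tissue the Sphk1 probe set was above the array median on all arrays. It averaged 292 ± 68.1 in whole medulla and 263 ± 89.5 in whole cortex (SD, n = 7 each), with a log2 fold change of 0.17 (95% interval -0.25 to 0.59, adjusted p = 0.52). The lowest, median and highest arrays read 164, 303 and 382 in whole medulla and 136, 234 and 396 in whole cortex, so the groups overlapped over most of their range. The other Sphk1 probe set, 1420566_at, did not pass the filter and read 29 to 251 in whole medulla, against 3.6 to 87.3 in whole cortex. Without the filter this probe set was tested too, and it was then called higher in whole medulla than in whole cortex and than in medullary thymocytes.

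Sgpl1, the lyase that removes S1P, was above the array median on every array by its brightest probe set, 1415892_at. It read 463, 479, 424, 489 and 527 in medullary thymocytes, against 305, 199, 242, 279 and 244 in cortical thymocytes. The groups did not overlap, and the log2 fold change of 0.85 (SE 0.14, adjusted p = 1e-05) passed the p-value but not the size set for a call. Whole medulla averaged 2250 ± 276 and whole cortex 1730 ± 424 (SD, n = 7 each), and the lowest, median and highest arrays read 1902, 2192 and 2671 in whole medulla, against 1119, 1614 and 2286 in whole cortex. These groups overlapped, and the difference of 0.4 (SE 0.12, adjusted p = 0.0051) was again under the size limit.

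**Figure D2:**
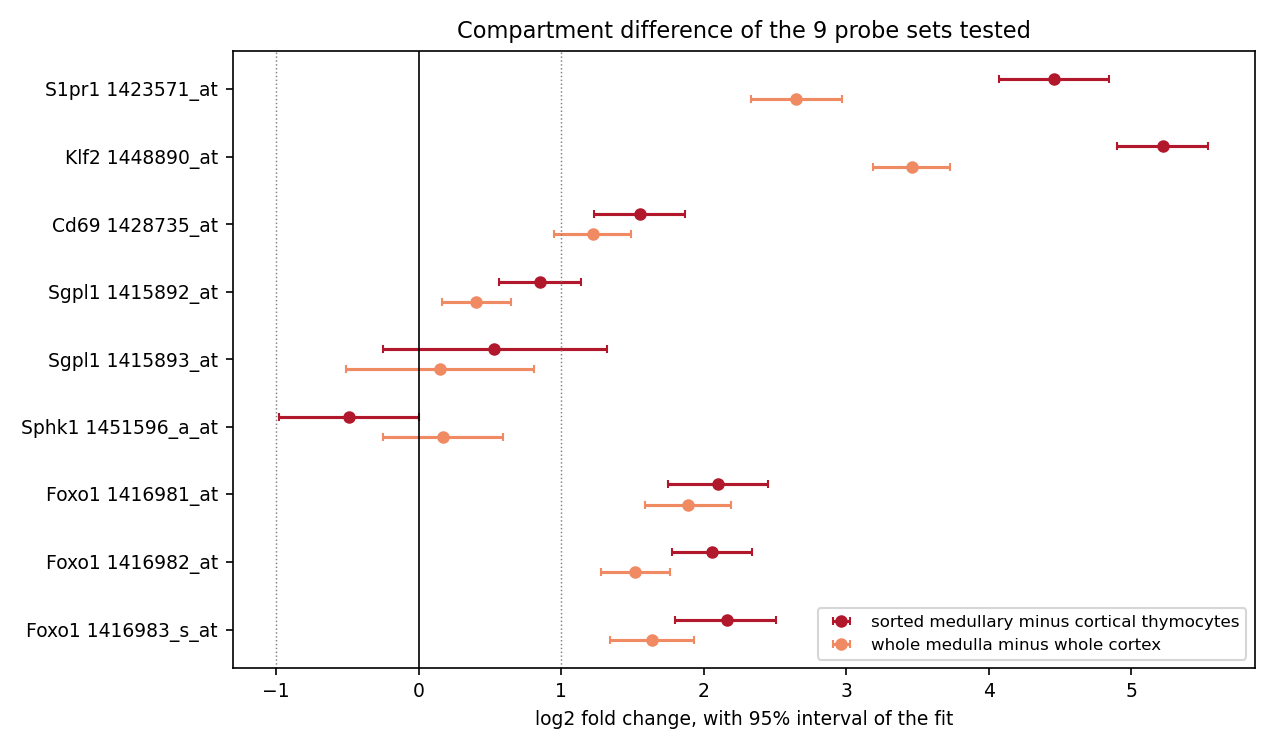
Log2 fold change of the 9 tested probe sets with the 95% interval of the fit, for sorted medullary minus cortical thymocytes and for whole medulla minus whole cortex. Dotted lines mark a log2 fold change of 1 in either direction, and for Klf2, S1pr1 and Foxo1 probe set 1416982_at the whole tissue interval lies below the thymocyte interval.

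The difference between the compartments was smaller in tissue than in sorted cells for both genes with the largest changes. Tested as an interaction (the tissue difference minus the thymocyte difference), the value was -1.81 for S1pr1 (SE 0.25, adjusted p = 7.7e-07) and -1.76 for Klf2 (SE 0.2, adjusted p = 3.1e-08). These were the 2 of the 9 probe sets called lower, against 2.07% of all tested. For Cd69 the interaction was -0.33 (95% interval -0.74 to 0.09, adjusted p = 0.3) and for the brightest Foxo1 probe set -0.52 (95% interval -0.98 to -0.06, adjusted p = 0.1). Foxo1 probe set 1416982_at gave -0.54 (SE 0.18, adjusted p = 0.029), under the size limit, and 1416981_at gave -0.21 (SE 0.23, adjusted p = 0.58).

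Tissue was also set directly against the sorted cells of its own compartment. S1pr1 was lower in whole medulla than in medullary thymocytes, at -1.02 on the log2 scale (SE 0.17, adjusted p = 9.8e-06), which was close to the size limit, and Klf2 differed by -0.84 (SE 0.14, adjusted p = 1e-05), short of it. S1pr1 was the only 1 of the 9 probe sets called lower, against 3.75% of all tested. Without the arrays with a wide upper tail its value was -0.93, which is no call. Leaving out any 1 of medullary thymocyte replicates 4 and 5 or whole medulla replicates 1, 3 and 5 gave -0.99 to -0.96, also no call, and an offset 4 times as large gave -0.97. In whole cortex against cortical thymocytes, S1pr1 differed by 0.78 (SE 0.17, adjusted p = 0.00056) and Klf2 by 0.92 (SE 0.14, adjusted p = 6e-06). Klf2 passed the size limit there, at 1.14, when only arrays without a wide tail were used. In whole cortex the mature thymocyte markers also differed from cortical thymocytes, with 4 of 11 higher (9.63% of all tested genes) and a summed signal of 27082 to 37572 in whole cortex, against 17276 to 20281 in cortical thymocytes. Their part in the Klf2 and S1pr1 values was not tested.

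In whole medulla the enzymes of S1P ran the other way from S1pr1 and Klf2, while in whole cortex they differed in the same direction. Sphk1 was higher in whole medulla than in medullary thymocytes by 2.59 (SE 0.22, adjusted p = 7.1e-12), and in whole cortex than in cortical thymocytes by 1.94 (SE 0.22, adjusted p = 2e-08). Sgpl1 was higher by 2.17 (SE 0.13, adjusted p = 6.3e-16) in whole medulla than in medullary thymocytes, and by 2.62 (SE 0.13, adjusted p = 1.1e-17) in whole cortex than in cortical thymocytes. The Sphk1 values depend on the offset added to low signals, and ranged from 1.58 to 3.25 in whole medulla and from 1.24 to 2.3 in whole cortex over offsets that were 4 times as large and 4 times as small. Sphk1 and Sgpl1 gave the 2 of 9 probe sets called higher in both comparisons, where 14% of all tested were higher in whole medulla and 7.23% in whole cortex.

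For the brightest probe set of each enzyme no tissue array overlapped with any sorted array. The second Sgpl1 probe set, 1415893_at, read 56.3 to 614 in whole medulla, against 125 to 264 in medullary thymocytes, and its difference of 0.58 (SE 0.36, adjusted p = 0.2) was not called, so the 2 probe sets of Sgpl1 differ on this point. They differ more in the cortical zones, where 1415893_at read 30.1 to 54.2 in subcapsular, 26.9 to 55 in central and 41.9 to 71.3 in perimedullary cortex, against 125 to 264 in medullary and 85 to 194 in cortical thymocytes. Every zone array of this probe set was below the median of its array and below every sorted array, the opposite of 1415892_at; the zones were not tested against sorted cells. In whole cortex against cortical thymocytes it differed by 0.96 (SE 0.36, adjusted p = 0.031), just under the size limit, and it passed that limit, at 1.01 to 1.13, without cortical thymocyte replicate 3 or without whole cortex replicate 1, 2 or 3. With only the arrays that had no wide upper tail, this probe set was called higher in both, at 1.03 in whole medulla and 2.02 in whole cortex. Markers of stroma and of myeloid cells stood apart in the same direction as both enzymes. All 7 pericyte and smooth muscle markers, all 4 fibroblast markers, all 8 dendritic cell and macrophage markers and 6 of 8 endothelial markers were higher in whole medulla than in medullary thymocytes, where 19.5% of all tested genes were. The summed pericyte signal was 16808 to 20338 in whole medulla and 343 to 705 in medullary thymocytes, and the endothelial sum was 2078 to 2709 in whole medulla and 1064 to 1578 in medullary thymocytes. Their part in the enzyme values was not tested.

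These markers also differed between whole medulla and whole cortex, where no tested probe set of either enzyme was called. There 6 of 7 pericyte and smooth muscle markers, 2 of 4 fibroblast markers, 6 of 8 dendritic cell and macrophage markers and 3 of 8 endothelial markers were higher, against 18.7% of all tested genes. The pericyte sum was 16808 to 20338 in whole medulla and 1439 to 2340 in whole cortex, and the fibroblast sum 2086 to 4804 in whole medulla and 1337 to 3272 in whole cortex. The part of these cells in the enzyme values was not tested.

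By mean signal of the brightest probe set on the log2 scale, Klf2, S1pr1, Cd69, Foxo1 and Sgpl1 were lowest in subcapsular and highest in perimedullary cortex, while Sphk1 was highest in subcapsular cortex. Which of these steps were called differed between the genes. Klf2 read 205, 211 and 210 in subcapsular cortex, 216, 221 and 241 in central cortex, and 996, 1065 and 1107 in perimedullary cortex. The first pair of zones lay side by side, and the perimedullary arrays were far above both. Perimedullary cortex was higher than central cortex by 2.1 on the log2 scale (SE 0.2, adjusted p = 6.7e-09) and higher than subcapsular cortex by 2.2 (SE 0.2, adjusted p = 1.2e-09).

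S1pr1 had the same order of zones. It read 61, 79 and 80.5 in subcapsular cortex, 83, 74.8 and 69.9 in central cortex, and 219, 170 and 205 in perimedullary cortex. Again only the perimedullary arrays stood apart. On the log2 scale the difference was 1.13 (SE 0.24, adjusted p = 0.0066) for perimedullary minus central cortex and 1.17 (SE 0.24, adjusted p = 0.00098) for perimedullary minus subcapsular cortex. The first of these depends on single arrays and on the low-signal offset: without perimedullary replicate 1 it was 1.06 with an adjusted p of 0.057, and with an offset 4 times as large it was 0.74.

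Klf2 and S1pr1 were the 2 of 9 probe sets higher in perimedullary than in central cortex, a comparison in which 0.912% of all tested probe sets were higher. With Cd69 they were the 3 of 9 higher in perimedullary than in subcapsular cortex, against 2.99%.

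Cd69 differed at the other edge of the cortex. It read 496, 536 and 413 in subcapsular cortex, 1510, 1639 and 1124 in central cortex, and 2265, 1669 and 2483 in perimedullary cortex. No arrays of different zones overlapped. Subcapsular cortex was lower than central cortex (log2 fold change -1.5, SE 0.2, adjusted p = 1.3e-05), the 1 of 9 probe sets called lower in a comparison that called 0.393% of all tested. Klf2 (-0.1, 95% interval -0.51 to 0.31) and S1pr1 (-0.04, 95% interval -0.53 to 0.46) were not called between these zones. Perimedullary cortex differed from central cortex by 0.58 for Cd69 (SE 0.2, adjusted p = 0.26), and from subcapsular cortex by 2.08 (SE 0.2, adjusted p = 4.6e-09).

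Among markers of semi-mature thymocytes, a stage at which CD69 is displayed, 3 of 11 were lower in subcapsular than in central cortex, against 0.431% of all tested genes. Their summed signal was 35015 to 39241 in subcapsular cortex and 52008 to 53302 in central cortex, and its part in the Cd69 value was not tested.

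Foxo1 had no called zone difference. Its brightest probe set read 1275, 1579 and 1919 in subcapsular cortex, 2198, 1620 and 1953 in central cortex, and 2234, 2592 and 2441 in perimedullary cortex. The subcapsular and central arrays overlapped, and the perimedullary ones lay just above. Perimedullary minus subcapsular cortex gave 0.62 (95% interval 0.16 to 1.07, adjusted p = 0.07), and for probe set 1416981_at 0.86 (SE 0.22, adjusted p = 0.0086), under the size limit. The brightest probe set averaged 1590 ± 322 in subcapsular and 1920 ± 290 in central cortex (SD, n = 3 each), against 999 ± 302 in whole cortex. Probe set 1416981_at read 625 to 1000 in these zones and 544 to 1262 in whole cortex, so the probe sets of Foxo1 place the zones differently against whole cortex, a comparison that was not tested.

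Sgpl1 and Sphk1 were called in no comparison of zones. The brightest Sgpl1 probe set averaged 1300 ± 121, 1530 ± 118 and 1770 ± 341 (SD, n = 3 each) in subcapsular, central and perimedullary cortex. The tested Sphk1 probe set averaged 216 ± 13.7, 158 ± 33.2 and 177 ± 41.5 (SD, n = 3 each) in the same order. Perimedullary minus central cortex gave 0.19 for Sgpl1 (95% interval -0.19 to 0.56) and 0.13 for Sphk1 (95% interval -0.5 to 0.77), intervals that leave room for changes below the size set for a call.

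Perimedullary cortex borders the medulla, and the exit genes there were set against whole medulla as a share of its mean signal. Zone arrays and whole-tissue arrays differed as sets, so in these shares that difference and place cannot be told apart. The share was 25.7% for Klf2 (arrays from 24.2% to 27%) and 19.4% for S1pr1 (16.7% to 21.4%), against 5.5% for Klf2 and 7.42% for S1pr1 in central cortex. For Cd69 it was 68.5% and for the brightest Foxo1 probe set 79.2%. The other tested Foxo1 probe sets had lower shares: 1416981_at averaged 1180 in perimedullary cortex and 2700 in whole medulla, and 1416982_at 972 and 1720. Genes of medullary epithelium, which mark medullary tissue itself, had shares of 2.29% to 14%: 5.22% for Aire, 2.29% for Fezf2, 6.02% for Epcam, 4.76% for Krt14 and 14% for Krt5. The 11 mature thymocyte markers ranged from 5.74% for Dapl1 to 57.3% for Il7r, with Ms4a4b at 22.1%, so Klf2 and S1pr1 lay inside the range of these genes. Dapl1 and Slfn1 (8.67%) also lay inside the range of the epithelial genes. Genes of dendritic cells and macrophages had shares like those of Klf2 and S1pr1 as well, among them Lyz2 (23.5%), Flt3 (23.7%) and Zbtb46 (28.1%), and the 8 of this list ranged from 8.77% for Fscn1 to 201% for Adgre1.

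**Figure D3:**
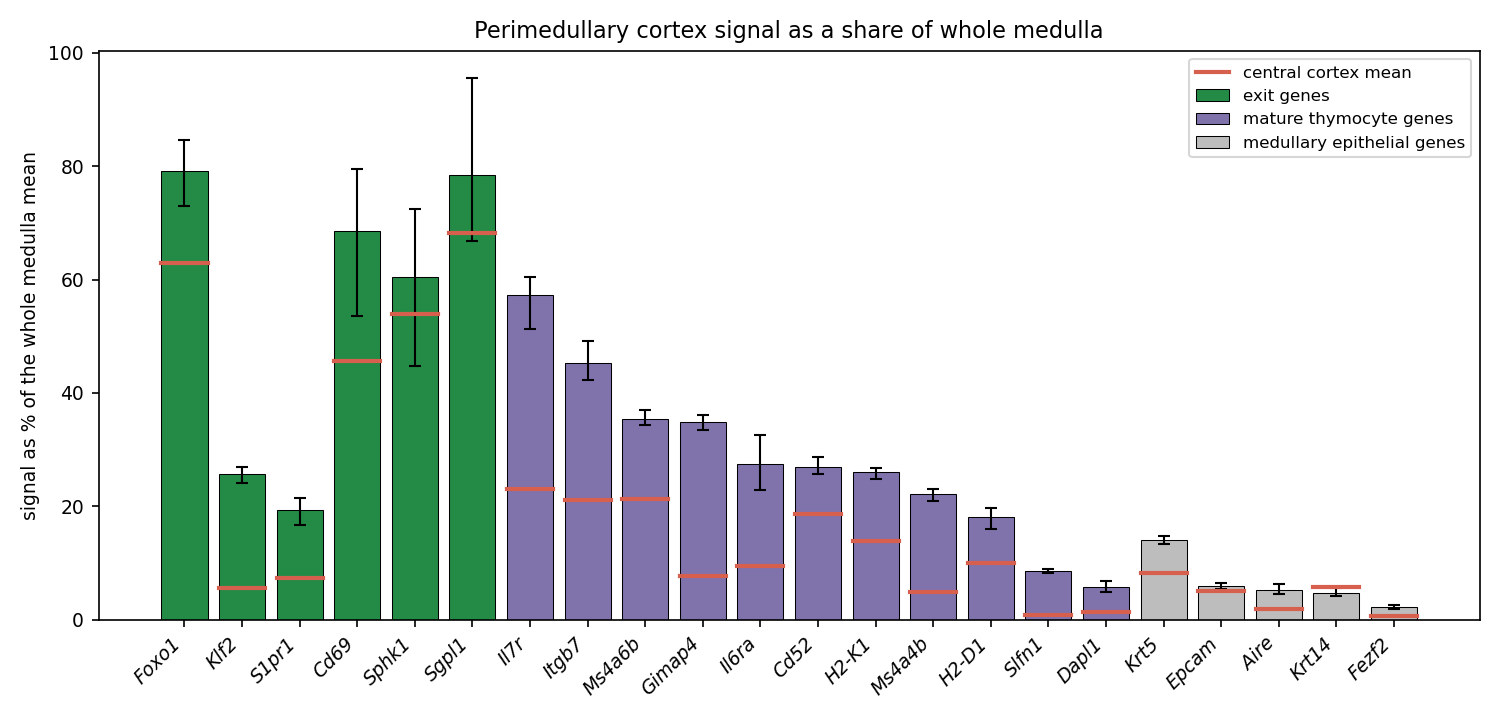
Mean signal in perimedullary cortex as a percent of the whole medulla mean, by the brightest probe set of each gene. Shown are the 6 exit genes, 11 mature thymocyte markers and 5 medullary epithelial genes. Lines run from the lowest to the highest of 3 perimedullary arrays, and the red dash is the central cortex mean. Klf2 (25.7%) and S1pr1 (19.4%) lie among the mature thymocyte markers and above the 5 epithelial genes.

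Other cell types also differed between these zones. Of the mature thymocyte markers 6 of 11 were higher in perimedullary than in central cortex, and of the dendritic cell and macrophage markers 4 of 8, against 1.21% of all tested genes. The summed dendritic cell and macrophage signal was 14601 to 15855 in perimedullary cortex and 5948 to 7534 in central cortex. None of the 5 medullary epithelial markers was called, although their sum was 1336 to 1397 in perimedullary cortex and 886 to 920 in central cortex. The part of these cells in the Klf2 and S1pr1 values was not tested.

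The other S1P receptors were not alike. S1pr4, a receptor of lymphocytes, was higher in medullary than in cortical thymocytes by 1.72 (SE 0.16, adjusted p = 7e-11) and in whole medulla than in whole cortex by 1.42 (SE 0.14, adjusted p = 6.8e-11). S1pr3, a receptor of vascular and stromal cells, averaged 4540 ± 471 in whole medulla, against 28.2 ± 6.27 in medullary thymocytes (SD, n = 7 and 5). Its log2 fold change between these groups was 6.39 (SE 0.11, adjusted p = 7e-32), and it was also higher in whole medulla than in whole cortex, by 1.67. S1pr2 was called in no comparison of the 8, and S1pr5 did not pass the filter.

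Of 19 tested genes for S1P synthesis, removal and export, 8 were higher in whole medulla than in whole cortex and none lower, against 18.7% of all tested genes higher. The median of the list was 0.68, against 0.11 over all genes. The 4 largest were Plpp2 (2.5), Plpp1 (2.23) and Sgpp2 (1.63), phosphatases that can remove the phosphate of S1P, and Cers4 (2.16), a ceramide synthase. Against medullary thymocytes 8 of the 19 were higher in whole medulla, where 19.5% of all tested genes were, with Plpp1 (3.85) and Plpp3 (3.73) the largest. Spns2, the transporter that carries S1P out of endothelial cells, was higher in whole medulla than in whole cortex by 1.37 (SE 0.31, adjusted p = 0.00032) and than in medullary thymocytes by 2.16 (SE 0.34, adjusted p = 2.5e-06).

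In sorted cells only 4 of these 19 genes were called. Cers4 (1.89) and Acer2 (1.33), an alkaline ceramidase, were higher in medullary thymocytes, and Cers6 (-1.78), another ceramide synthase, and Spns2 (-1) lower. The shares of all tested genes were 7.67% higher and 6.28% lower. Between the zones none of the 19 was called.

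Of 14 tested genes of the FOXO family and the kinases upstream, Pdpk1, the kinase that activates AKT, was the 1 called, lower in medullary than in cortical thymocytes (-1.01, SE 0.36, adjusted p = 0.026), a share near the 6.28% of all tested genes that were lower. The Pdpk1 call was close to the size limit. Pdpk1 read 449 to 3530 in medullary and 3510 to 3840 in cortical thymocytes, so these groups overlapped. No member was called in whole medulla against whole cortex. Foxo3 differed by -0.26 and Foxo4 by -1 between medullary and cortical thymocytes, neither of them called, beside 2.16 for Foxo1. Foxo4 still read 237 to 441 in medullary and 683 to 832 in cortical thymocytes, without overlap. In tissue it read 263 to 380 in whole medulla and 429 to 744 in whole cortex. The list median was -0.33 between the sorted cells, against 0.07 over all genes.

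Of 9 tested genes known as targets of FOXO1 or KLF2 in homing and survival, 6 were higher in medullary than in cortical thymocytes and none lower, against 7.67% of all tested genes higher. The median of the list was 3.93, and 0.07 over all genes. The largest were Ccr7 (6.07), the receptor that draws thymocytes into the medulla, Itgae (5.74), an integrin subunit, Bach2 (4.51), a transcriptional repressor, and Il7r (4.46), the receptor for interleukin 7. Ccr7 averaged 9300 ± 934 in medullary thymocytes, against 113 ± 15.8 in cortical thymocytes (SD, n = 5 each). In whole medulla against whole cortex 7 were higher, with Klf4 (2.11) added, and Klf3 (-1.02) was lower, where 18.7% of all tested genes were higher and 5.39% lower. In perimedullary against central cortex 5 of the 9 were higher, where 1.21% of all genes were, with Itgae at 3.1, Ccr7 at 2.28, Bach2 at 1.48 and Il7r at 1.31.

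Among these target genes, Ccr7 and Bach2 had a called zone difference that Klf2 and S1pr1 did not have. Subcapsular cortex was lower than central cortex for Ccr7 (-1.33, adjusted p = 0.00032) and Bach2 (-1.09, adjusted p = 0.026), the direction of Cd69. These were the 2 of 9 called lower, against 0.431% of all tested genes. The Ccr7 signal was low there, at 6.6 to 55.7 in subcapsular cortex, below the array medians, and 94.1 to 123 in central cortex. Il7r (-1.92), Itgae (-1.77) and Ccr7 (-1.37) had, as Klf2 and S1pr1 did, a smaller compartment difference in tissue than in sorted cells. They were the 3 of the 9 target genes called lower in this interaction, where 2.07% of all tested probe sets were lower. Of the other target genes 1 was called higher and 5 were not called.

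Of 13 tested genes that act below or on S1PR1 in signalling, desensitisation and motility, 2 were higher in medullary than in cortical thymocytes, where 7.67% of all tested genes were. They were Arrb2 (1.6, SE 0.15, adjusted p = 3.9e-11), an arrestin that takes receptors out of action, and Rassf5 (1.08, SE 0.09, adjusted p = 5.9e-12), an effector of integrin adhesion. In whole medulla against whole cortex Arrb2 alone was called (1.65, SE 0.12, adjusted p = 1.7e-13), 1 of 13 where 18.7% of all tested genes were higher. The list median was 0.63 between the sorted cells and 0.23 between whole medulla and whole cortex.

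By their brightest probe sets, the pattern over the 7 groups set the 6 genes into different company. Likeness was measured as the mean absolute difference of the 7 centred group means on the log2 scale, over 13463 genes. It is a description of 7 group means taken from the same arrays, and it holds for the brightest probe set of each gene only. Some other probe sets had another order of groups. Sgpl1 1415893_at was lower in every zone than in both sorted groups, the opposite of the brightest Sgpl1 probe set. Foxo1 1416981_at was lowest in subcapsular cortex, and the brightest Foxo1 probe set in cortical thymocytes. Nearest to Klf2 was Ms4a4b, a membrane protein of mature T cells, at 0.23, followed by Ifi213, Ifit1bl1, Gimap3 and Ccnd2. Nearest to S1pr1 was Klk8 at 0.24, followed by Ddx60, Ptgir, Ccnd2 and Arhgap20. Klf2 itself stood 0.41 from S1pr1 and was the 13th nearest gene to it.

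Nearest to Cd69 were Tdrp at 0.14 and Nr4a1, an early gene of antigen receptor signalling, at 0.24, and then Sidt1, A430093F15Rik and Dusp6. Foxo1 had Tgfbr2, a receptor of TGF-beta, nearest at 0.06, then Cotl1, Nfatc2, Parp3 and Atp10d. The nearest genes to Sgpl1 were Pxdc1 and Cldn5, a tight junction protein of endothelium, both at 0.12, then Srxn1, Niban2 and Exph5. The nearest to Sphk1 was Bok at 0.12, then Tmem205, Myof, Ddr2 and Gstm2. By their brightest probe sets, Sgpl1 and Sphk1 stood 0.37 apart, whereas S1pr1 stood 1.62 from Sgpl1 and 1.63 from Sphk1.

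**Figure D4:**
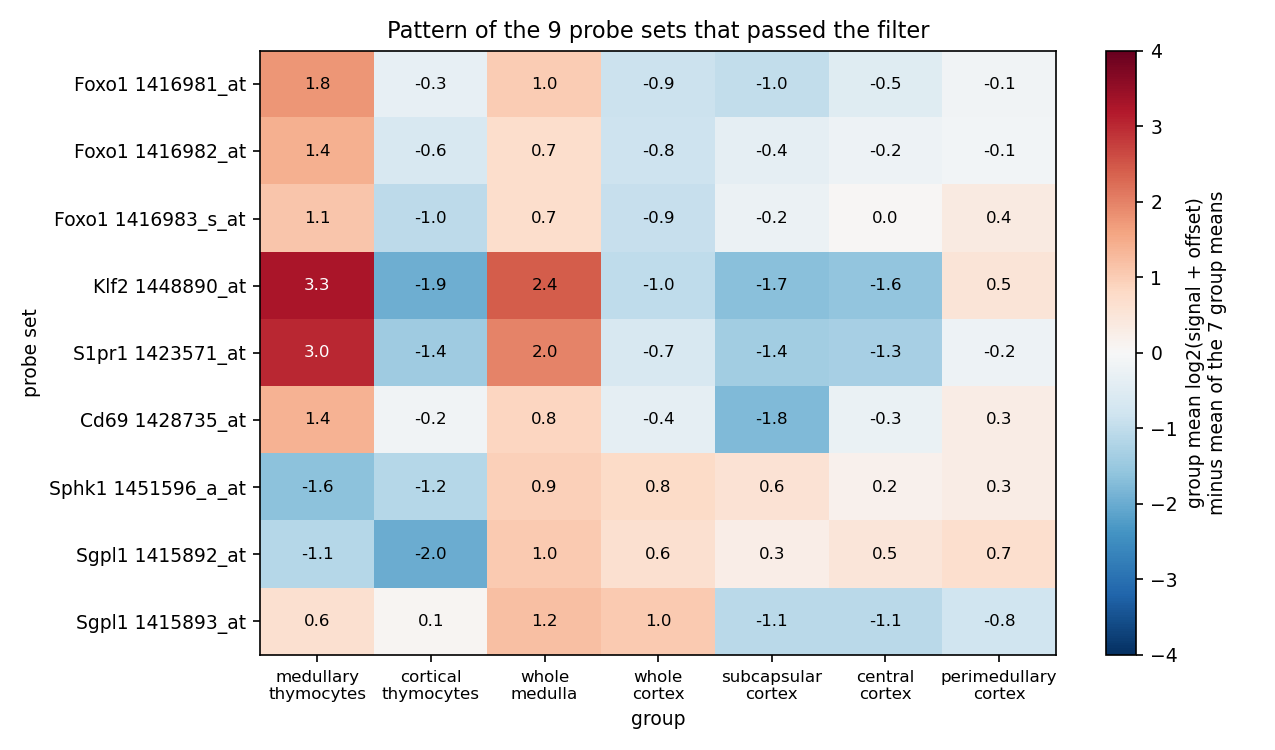
Heat map of the 9 tested probe sets over the 7 groups; each cell is the group mean on the log2 scale minus the mean of the 7 group means of that probe set. The 3 Foxo1 probe sets, Klf2, S1pr1 and Cd69 are highest in medullary thymocytes, and the Sphk1 probe set and both Sgpl1 probe sets are highest in whole medulla.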

How the data were processed

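The authors deposited linear intensity (signal) values made with Affymetrix Expression Console 1.0 and MAS5, per the submitters' processing notes; the genome build and any filter are not given in the sources used here. Probe sets were named through the platform's annotation. Before taking log2, 26.2 was added as an offset, the typical 25th percentile of an array. Of 45037 probe sets, 30045 were above the median of their array on at least 3 arrays. They were fitted with limma 3.58.1 in R 4.3.3, with 7 group means over 33 arrays (26 residual degrees of freedom) and a spread that follows the mean. Tests are 2-sided, adjusted by Benjamini-Hochberg within each comparison. The number of arrays limits the precision.

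For a gene with several probe sets, the brightest on average stood for it; those with names ending in s_at or a_at can read several related transcripts. Named were all member probe sets in every group, the 5 genes most like each member, and up to 4 called genes of each pathway list. The members, lists and tests were chosen with earlier results of these data known. The fit was tested on simulated data. Some genes of the lists are not reported here. Alternatives changed the offset, normalization, filter, arrays fitted, weights, spread model and unit of test, and left out arrays.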

Additional observations from a re-analysis of the deposited data

Results flagged for a closer look

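In 6 cases a value stood out, 2 between tissue and sorted cells and 4 on single arrays. The difference between the compartments was smaller in tissue than in sorted thymocytes by an interaction test for S1pr1 (-1.81, limma adjusted p = 7.7e-07) and for Klf2 (-1.76, limma adjusted p = 3.1e-08). The 4 single arrays were at the top of their group for probe sets that did not pass the filter on low values. For Sphk1 probe set 1420566_at, cortical thymocyte replicate 4 read 13.8 with the next array at 3.96, a gap of 0.876 of the range of the group. For the same Sphk1 probe set, whole cortex replicate 5 read 87.3 with the next at 24.7 (0.748 of the range), and whole medulla replicate 1 read 251 with the next at 124 (0.574). For Foxo1 probe set 1456529_at, whole medulla replicate 4 read 106 with the next at 35.2 (0.718). These 4 gaps came from 44 checks by Dixon's test, which by chance marks about 1 group in 20.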

How the results depend on the processing

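Over 72 fold changes of single probe sets and their 1561 recomputed values, 1526 kept their direction and their side of the threshold, 12 lost the call, 8 gained it and 15 had the opposite sign. These 15 belong to 8 fold changes, were at most 0.19 in size and none was called. In whole medulla against whole cortex, quantile normalization gave -0.19 for Sphk1 and -0.19 for Sgpl1 1415893_at, which was also -0.08 without the wide-tail arrays and -0.02 to 0.47 when 1 array was left out. In whole cortex against cortical thymocytes, Foxo1 1416981_at was 0.04 and 1416982_at 0.1 without the wide-tail arrays, and 1416983_s_at was -0.02 with the replicate block. In subcapsular against central cortex, Sgpl1 1415893_at was -0.02 with array weights, and leaving out 1 array gave -0.15 to 0.19 for it and -0.09 to 0.06 for S1pr1. In perimedullary against central cortex it gave -0.01 to 0.22 for Foxo1 1416982_at. The count of called probe sets in whole cortex against cortical thymocytes was 2 and became 1 under the stricter filter, which no longer tests the Sphk1 probe set, and 4 with only arrays without a wide upper tail. In perimedullary against central cortex it was 2 and became 1 with an offset 4 times as large and 1 after quantile normalization, with S1pr1 at 0.74 and 0.93. Leaving out 1 array at a time gave 1 to 2 there, the 1 without perimedullary replicate 1, and 2 to 3 in whole cortex against cortical thymocytes and in whole medulla against medullary thymocytes. The other 5 comparisons kept their counts when 1 array was left out. S1pr1 in perimedullary against subcapsular cortex was 0.76 with the larger offset and 0.94 after quantile normalization, both under the size limit. The cause of these losses was not tested.

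The replicate block gave the same counts of called probe sets, 6, 6, 2, 3, 2, 1, 2 and 3, in the order medullary minus cortical thymocytes, whole medulla minus whole cortex, their interaction, whole medulla minus medullary thymocytes, whole cortex minus cortical thymocytes, subcapsular minus central, perimedullary minus central and perimedullary minus subcapsular cortex. Replicate numbers showed little pairing of the samples: of 31 same-numbered pairs, 5 had a correlation of deviations over 0.1, and in 10 the sample correlated best with its own number. The highest were 0.24 and 0.25, between whole medulla and whole cortex for replicates 6 and 7. With so few arrays per group, weak correlations cannot exclude shared animals. Low signal limits the values of Sphk1 in sorted cells and of S1pr1 in the cortex, and 3 arrays per zone limit the zone comparisons.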
